A study of Mus musculus with 6 samples.

Results

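The 4 Hox gene clusters were examined in the open-chromatin peak lists of lineage-depleted bone marrow progenitors from C57BL/6 mice. Every peak in or within 20 kb of 38 listed Hox genes was taken, with gene spans from RefSeq on mm10: 10 genes of the Hoxa cluster on chromosome 6, 10 of Hoxb on chromosome 11, 9 of Hoxc on chromosome 15 and 9 of Hoxd on chromosome 2. Overlapping peaks of the 6 samples (1 bp or more) were merged, which gave 27 Hox regions of 75961 regions in all, each counted at its full width. The groups were 3 samples of wild type (labelled UTX_WT; WT1 to WT3) and 3 of knockout (UTX_KO; KO1 to KO3) of Utx, which encodes an H3K27 demethylase. Both groups have the same strain and the same lineage depletion. For the allele, the driver of any deletion and the age of the mice nothing is given in the sources used here. Nor do they say whether the samples are separate animals, so p-values measure only the spread between these samples, which may be technical.

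Hox genes encode homeodomain transcription factors that lie in 4 clusters, in which paralogue groups 1 to 3 (anterior) sit at the 3′ end and groups 9 to 13 (posterior) at the 5′ end. In blood, genes of the Hoxa and Hoxb clusters are active in stem and progenitor cells and are shut off as the cells mature, with Hoxa9 and Hoxb4 the members best known for driving self-renewal. The clusters are classic targets of Polycomb, which deposits H3K27me3, the mark that UTX removes, and of the MLL and menin complexes that keep them active. HOX proteins bind DNA together with PBX and MEIS partners of the TALE family, and the clusters also hold microRNA genes of the miR-10 and miR-196 families.

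The promoter windows of 4 members overlapped a merged peak region, and they are shown because they cover the range from a peak in every sample to peaks in knockout alone. Each sequence runs from 250 bases before to 50 after the RefSeq start (GRCm38.p6, the assembly of mm10), 5′ to 3′ on the gene's strand, and capitals mark the bases that lie inside the merged peak region.
Hoxa3 (chr6:52213018-52213317, minus strand; peaks in all 6 samples): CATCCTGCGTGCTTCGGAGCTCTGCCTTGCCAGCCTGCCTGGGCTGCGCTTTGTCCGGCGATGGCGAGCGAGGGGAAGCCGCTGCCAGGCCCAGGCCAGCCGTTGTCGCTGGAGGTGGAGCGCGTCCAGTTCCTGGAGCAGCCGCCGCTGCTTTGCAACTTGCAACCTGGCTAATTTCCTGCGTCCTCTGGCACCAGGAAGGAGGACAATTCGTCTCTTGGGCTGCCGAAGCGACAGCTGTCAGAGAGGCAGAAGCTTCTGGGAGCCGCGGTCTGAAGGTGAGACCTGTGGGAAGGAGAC
Hoxa5 (chr6:52204538-52204837, minus strand; peaks in WT1, WT2, WT3 and KO2): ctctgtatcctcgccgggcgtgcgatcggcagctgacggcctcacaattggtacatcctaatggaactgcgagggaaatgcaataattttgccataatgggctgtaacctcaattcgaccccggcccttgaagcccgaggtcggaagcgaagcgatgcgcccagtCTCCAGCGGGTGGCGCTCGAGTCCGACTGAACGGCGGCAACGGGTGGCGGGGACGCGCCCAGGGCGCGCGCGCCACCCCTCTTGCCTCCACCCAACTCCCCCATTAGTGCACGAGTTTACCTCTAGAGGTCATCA
Hoxb4 (chr11:96318017-96318316, plus strand; the region is in WT1, WT2 and WT3): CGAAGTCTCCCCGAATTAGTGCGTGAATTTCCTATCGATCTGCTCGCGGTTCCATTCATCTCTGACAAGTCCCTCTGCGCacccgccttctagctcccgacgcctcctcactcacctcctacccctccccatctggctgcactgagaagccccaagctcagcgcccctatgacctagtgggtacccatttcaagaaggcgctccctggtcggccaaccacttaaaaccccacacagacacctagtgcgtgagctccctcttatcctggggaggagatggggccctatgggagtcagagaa
Hoxa13 (chr6:52260831-52261130, minus strand; peaks in KO1 and KO2): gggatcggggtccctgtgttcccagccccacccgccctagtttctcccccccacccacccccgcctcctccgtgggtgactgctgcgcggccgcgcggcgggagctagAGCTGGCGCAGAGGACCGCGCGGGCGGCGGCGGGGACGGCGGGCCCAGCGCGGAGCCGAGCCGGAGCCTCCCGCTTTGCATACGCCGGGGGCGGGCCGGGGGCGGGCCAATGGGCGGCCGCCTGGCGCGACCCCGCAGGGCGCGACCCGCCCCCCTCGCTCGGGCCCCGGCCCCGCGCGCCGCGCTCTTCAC
The Hoxa3 window lay wholly within its region, while the Hoxb4 region reached only the first 80 bases, upstream of the start. In KO3 the Hoxa3 region consisted of separate peaks of 225 and 338 bp, and the start lay in the gap between them. The Hoxa13 window had 45 CpG dinucleotides, the most among the 24 Hox windows in the promoter table, where the median was 14.5 against 7 over all 32851 promoter windows. In Hoxa5 there were 29, in Hoxa3 20 and in Hoxb4 14.

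Mature microRNAs of the clusters are shown because the Mir196b and Mir10a genes lie beside the regions that had peaks in all wild-type and no knockout samples, at Hoxa9 and Hoxb4. They are RefSeq sequences, 5′ to 3′, with the seed (bases 2 to 8) in capitals.
miR-196b-5p (Hoxa cluster): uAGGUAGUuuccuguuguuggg
miR-196a-5p (Hoxb and Hoxc clusters): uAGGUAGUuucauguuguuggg
miR-10a-5p (Hoxb cluster): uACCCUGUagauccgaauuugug
miR-10b-5p (Hoxd cluster): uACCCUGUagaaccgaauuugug
The pair of miR-196 sequences shared the seed AGGUAGU and the pair of miR-10 sequences the seed ACCCUGU.

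Open chromatin at the Hox genes was concentrated in the Hoxa cluster between Hoxa3 and Hoxa10 and around Hoxb4, and the Hoxc cluster had no peak in any sample. Hoxa held 16 of the 27 regions, Hoxb 7 and Hoxd 4. Over the 155.726 kb of the Hoxc window, 0 peaks were called in each of the 6 lists, which leaves Hoxc4, Hoxc5, Hoxc6, Hoxc8, Hoxc9, Hoxc10, Hoxc11, Hoxc12 and Hoxc13 without a region, along with Hoxb1, Hoxb2, Hoxb13 and Hoxd1. These 13 members are 34.2% of the 38, against 22.4% of 21899 protein-coding genes with no peak within 20 kb in any sample. Mir196a-2, between Hoxc10 and Hoxc9, therefore had no peak near it. A list holds only sites above the caller's threshold, so a site without a peak is one that was not called, not one shown to be closed.

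**Figure D1:**
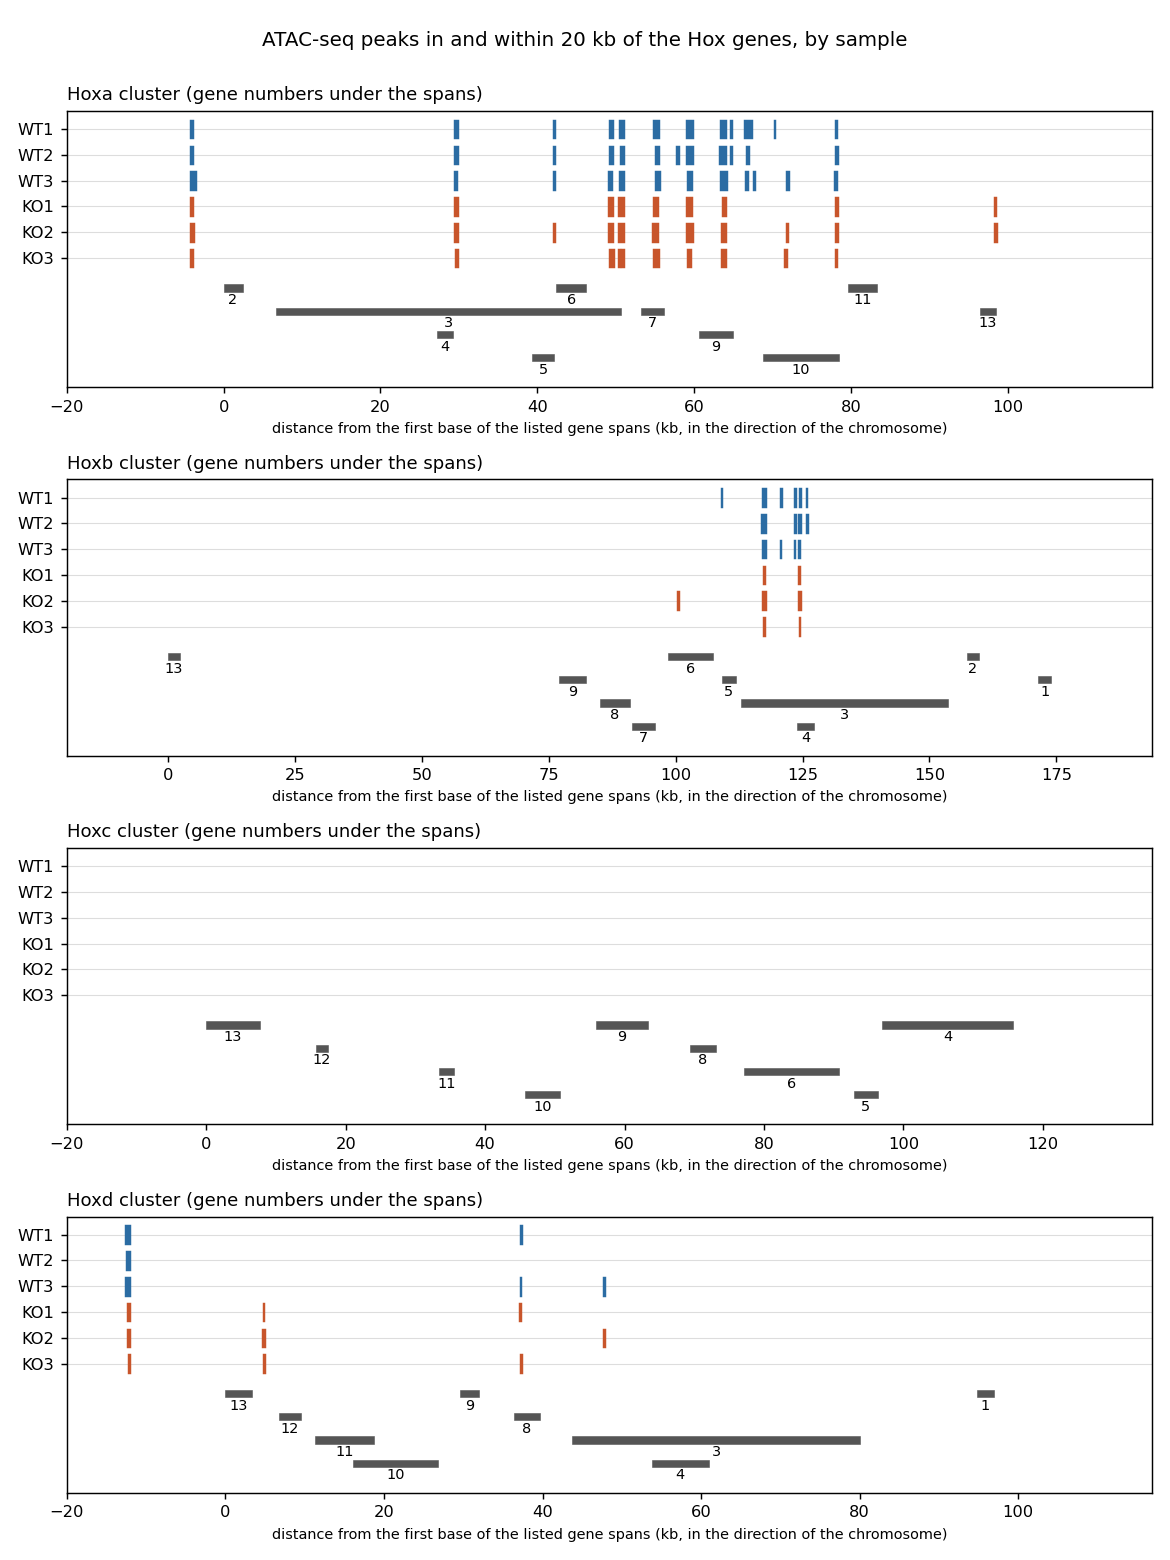
Peaks of each sample (rows, wild type in blue and knockout in orange) along the 4 clusters, by distance in kb from the first base of the listed gene spans. Grey bars are the RefSeq spans with the paralogue number under each, and the outline of a bar makes the narrowest peaks look slightly wider than they are. Peaks are dense from Hoxa3 to Hoxa10 and around Hoxb4, and the 9 Hoxc genes have 0.

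Counted per sample, the Hoxa and Hoxb clusters had fewer peaks in knockout than in wild type, and the Hoxd cluster did not. The Hoxa window held 12 peaks in each of WT1, WT2 and WT3, and 9, 11 and 10 in KO1, KO2 and KO3. The 10 of KO3 include separate peaks of 225 and 338 bp within the region at the Hoxa3 start. The groups did not overlap, and the difference in means was -2 peaks (two-sided exact permutation p = 0.1, the smallest that 3 samples against 3 allow). The Hoxb window held 6, 4 and 4 peaks in wild type and 2, 3 and 2 in knockout, a difference of -2.33 with no overlap (exact permutation p = 0.1). In the Hoxd window there were 2, 1 and 3 peaks in wild type and 3 in every knockout sample, with overlap (exact permutation p = 0.4). Without WT3 the Hoxd difference was 1.5 peaks and the groups did not overlap (exact permutation p = 0.1). Because no test of this size can go below 0.1, no single difference could pass a conventional threshold.

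Covered length was also lower in every knockout than in any wild-type sample for Hoxa and Hoxb. Hoxa peaks covered 6.39, 6.05 and 6.07 kb in WT1 to WT3 and 4.77, 5.97 and 4.77 kb in KO1 to KO3, a mean difference of -16.2%. KO2, whose list was the longest of the knockout lists, lay just under the wild-type samples. Hoxb peaks covered 2.287, 2.002 and 1.734 kb in wild type and 0.836, 1.537 and 0.951 kb in knockout, a difference of -44.8% (exact permutation p = 0.1 for each of these clusters). Hoxd peaks covered 0.832 ± 0.302 kb in wild type (SD, n = 3) and 0.788 ± 0.164 kb in knockout (n = 3), with overlapping groups (exact permutation p = 0.9). Among the widest 50% of peaks the Hoxd difference was -0.605 kb, with no overlap (exact permutation p = 0.1), since the knockout lists then held no Hoxd peak.

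The whole knockout lists were shorter too, with 44576 to 50249 peaks against 57405 to 57917, a difference of -19.0%, and sequencing depth is unknown. Against that, Hox peaks overall differed by -17.9% (18.7 ± 1.53 against 15.3 ± 1.53, SD, n = 3 each; exact permutation p = 0.2), and their share of all peaks was 0.0324% ± 0.00279 and 0.0328% ± 0.00162 (exact permutation p = 0.8). Per Mb covered by the sample's own list, a measure added after seeing the data, Hoxa peaks covered 187 ± 8.19 bp in wild type and 185 ± 12.8 bp in knockout (SD, n = 3 each; exact permutation p = 0.8). On that measure Hoxb peaks covered 60.9 ± 9.36 and 39.3 ± 10.7 bp, and the groups overlapped, with WT3 at 51.3 and KO2 at 51.4 bp (exact permutation p = 0.2). When every list was limited to its 44576 widest peaks, the Hoxa window had a mean of 9.33 peaks in both genotypes. The Hoxb window then had a mean of 3.33 peaks in wild type and 2.33 in knockout, with overlapping groups (exact permutation p = 0.3). The Hoxd window had a mean of 1 in wild type and 3 in knockout, with no overlap (exact permutation p = 0.1). This limit sets a different smallest width in each list and left KO3 whole. At Hoxd8 it dropped the wild-type peaks of 232 and 215 bp and kept the knockout peaks of 222 and 199 bp. With that unequal width cut, at equal list length the lower Hoxa peak count was not present, the Hoxb groups were no longer separate and the Hoxd groups were. Covered length there differed by -0.556 kb for Hoxa and -0.599 kb for Hoxb (exact permutation p = 0.2 each). Within the gene spans alone the Hoxa difference was -0.082 kb (exact permutation p = 0.7) and the Hoxb difference -0.833 kb (exact permutation p = 0.1).

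**Figure D2:**
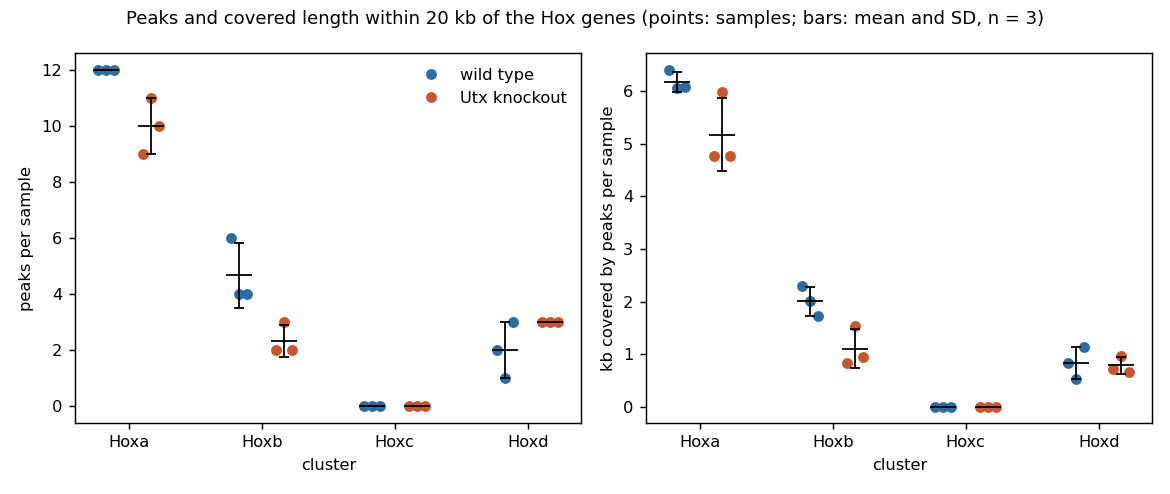
Peaks (left) and kb covered by peaks (right) within 20 kb of the genes of each cluster, as points for the 3 wild-type (blue) and 3 knockout (orange) samples with mean and SD. Wild-type and knockout points do not overlap for Hoxa and Hoxb, overlap for Hoxd, and are all 0 for Hoxc.

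The regions were sorted by the samples that had them, and 11 of 27 (40.7%) had a peak in all 6, against 41% of all regions. "Lost" is used here for a region with peaks in each of WT1 to WT3 and in none of KO1 to KO3, and "gained" for the reverse. There were 2 lost regions (7.41%, against 10.6% of all regions), at Hoxa9 and Hoxb4, and 1 gained region (3.70%, against 4.69%), between Hoxd13 and Hoxd12. Of the 14 Hox regions with a peak in all 3 wild-type samples 14.3% were lost, against 17.3% over all regions, and of the 12 in all 3 knockout samples 8.33% were gained, against 9.62%. Peaks in wild type alone, in 1 or more samples, made up 9 regions (33.3%, against 28.5%), and peaks in knockout alone 3 regions (11.1%, against 12%). A peak in 1 sample alone was the case for 5 regions, against 15.5% of all regions. The counts of calls were small and turned on single samples: without WT3 there were 4 lost regions, and without KO3 2 gained regions. The shares lie near their backgrounds, so these counts do not set the Hox regions apart from the rest of the genome.

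Around Hoxa9, the member most closely tied to myeloid leukaemia, the peaks between the gene and Hoxa10 were found in wild type alone. The lost region at chr6:52228758-52229786 lay between Hoxa9 and Hoxa10, 1388 bp upstream of the Hoxa9 start and 295 bp from the hairpin of Mir196b, and overlapped the predicted gene Gm52902. Its peaks were 1029 bp wide in WT1, 451 bp in WT2 and 328 bp in WT3, and absent from the 3 knockout lists, and 227 bp of it were covered in every wild-type sample. The difference in covered length was -603 bp, with a wide spread among wild-type samples. A lost region is separate by definition, which fixes its exact permutation p at 0.1. When peaks had to cover 50% of a merged region, the region at Hoxa9 was not called, since 2 of the wild-type peaks are narrower than that.

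The neighbouring wild-type peaks were each found in fewer samples. A region of 253 bp inside Hoxa9, starting 137 bp downstream of its start, had a peak in WT1 and WT2, at 253 and 249 bp. The Mir196b hairpin itself (chr6:52230081-52230165) was overlapped by a peak of 199 bp in WT3, and another 199 bp peak lay inside Hoxa10 in WT1. Peaks of 199 bp are the narrowest in these lists. Together with a 356 bp peak of WT2 between Hoxa7 and Hoxa9, the Hoxa cluster had 5 of 16 regions in wild type alone (31.25%, against 28.5% of all regions). In knockout alone it had 1 (6.25%, against 12%). Inside Hoxa9, a region at chr6:52225604-52226672, the widest of the 27, had peaks in all 6 samples, with 716, 910 and 904 bp covered in wild type and 501, 761 and 599 bp in knockout. These groups overlapped, with KO2 above WT1 (exact permutation p = 0.2).

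At Hoxb4, whose protein expands blood stem cells when it is made in excess, a region inside the gene had peaks in every sample and the regions around it had peaks in wild type alone. The lost region at chr11:96317699-96318096 ended 171 bp upstream of the Hoxb4 start and lay 425 bp from the hairpin of Mir10a, within the long RefSeq span of Hoxb3. Its peaks were 323, 395 and 211 bp wide in WT1, WT2 and WT3, with none in knockout, and 199 bp were covered in every wild-type sample. The peaks of WT1 and WT2 reached into the promoter window printed above and that of WT3 did not. With equal list length the WT3 peak drops out and the region is no longer called. Just downstream, at chr11:96318392-96318924, a region 125 bp past the start had peaks in every sample, of 379, 414 and 396 bp in wild type and 382, 533 and 363 bp in knockout.

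A region 1708 bp downstream of the Hoxb4 start had peaks of 225 bp in WT1 and 266 bp in WT2. One 3009 bp upstream had peaks of 390 bp in WT1 and 349 bp in WT3. Neither had a peak in knockout, and neither was called because a wild-type sample lacked it. Beside Hoxb5 WT1 alone had a peak of 201 bp, and inside Hoxb6 KO2 alone had one of 277 bp. The Hoxb cluster thus had 4 of 7 regions in wild type alone (57.1%, against 28.5% of all regions) and 1 in knockout alone (14.3%, against 12%). Hoxb7, Hoxb8 and Hoxb9 had no region in or within 1 kb of their spans.

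**Figure D3:**
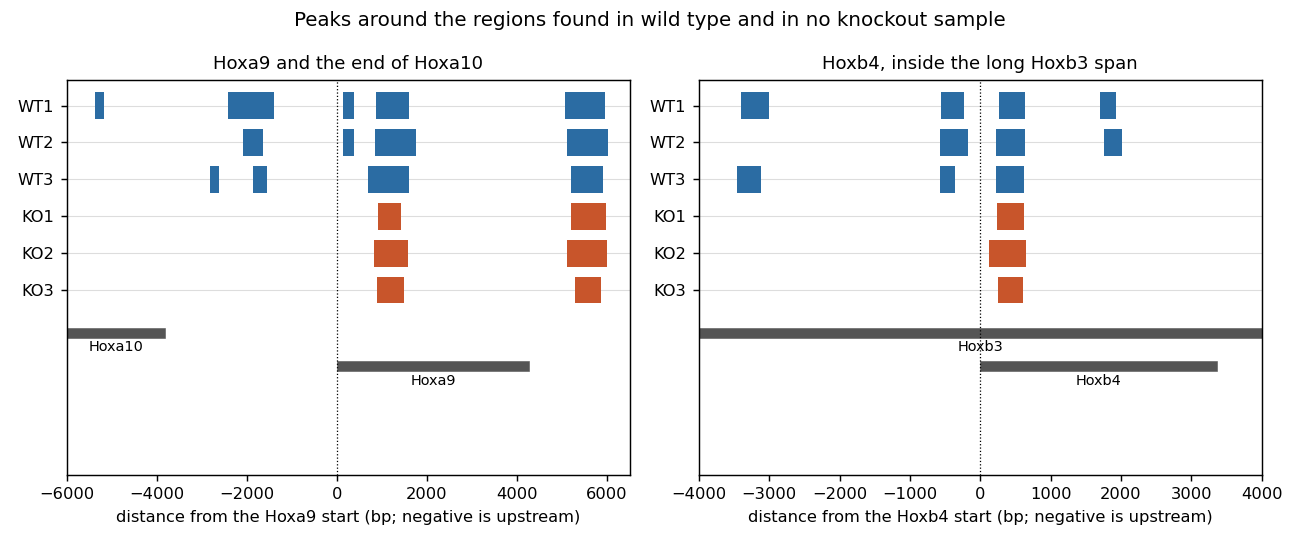
Peaks of each sample around Hoxa9 (left) and Hoxb4 (right), by distance in bp from the gene's start with upstream to the left; grey bars are gene spans. Each gene has a region with peaks in all 6 rows, while the peaks from 1388 bp upstream of Hoxa9 and from 171 bp upstream of Hoxb4 are in blue rows alone.

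At Hoxd13 and Hoxa13, in the posterior parts of their clusters, knockout lists had peaks that wild type lacked. The gained region at chr2:74672872-74673219 lay between Hoxd13 and Hoxd12, genes of limb and genital patterning, 1269 bp from the Hoxd13 span and 1794 bp upstream of the Hoxd12 start. Its peaks were 212 bp in KO1, 348 bp in KO2 and 244 bp in KO3, with none in wild type, a difference of 268 bp. The call itself fixes the exact permutation p at 0.1. In every knockout sample 175 bp were covered. The region was also called gained at equal list length. That is no independent check, since trimming lists to their widest peaks left KO3 whole and could add no wild-type peak. Among the widest 50% of peaks the region was absent. Over the start of Hoxa13, a gene of the same paralogue group, KO1 had a peak of 311 bp and KO2 one of 403 bp, while KO3 and all wild-type samples had none. This region, chr6:52260620-52261022, was not called gained because KO3 lacked it (exact permutation p = 0.4 for covered length). Hoxb13 and Hoxc13, the other members of group 13, had no peak within 20 kb.

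The outermost region of the Hoxd window, chr2:74655566-74656245, lay 11980 bp from Hoxd13 and overlapped Evx2, the homeobox gene that borders the cluster. It had peaks in every sample, but those of knockout were narrower, at 283, 385 and 229 bp against 610, 526 and 680 bp, with no overlap (difference -306 bp, exact permutation p = 0.1). Among its bases 171 bp, or 25.1%, were covered in every wild-type and no knockout sample. Within the cluster, Hoxd8 had a region with peaks of 199 to 232 bp in WT1, WT3, KO1 and KO3. Hoxd3 had one of 234 bp in WT3 and 242 bp in KO2. Neither of these separated the genotypes. The Mir10b hairpin lay 9983 bp from the nearest region.

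**Figure D4:**
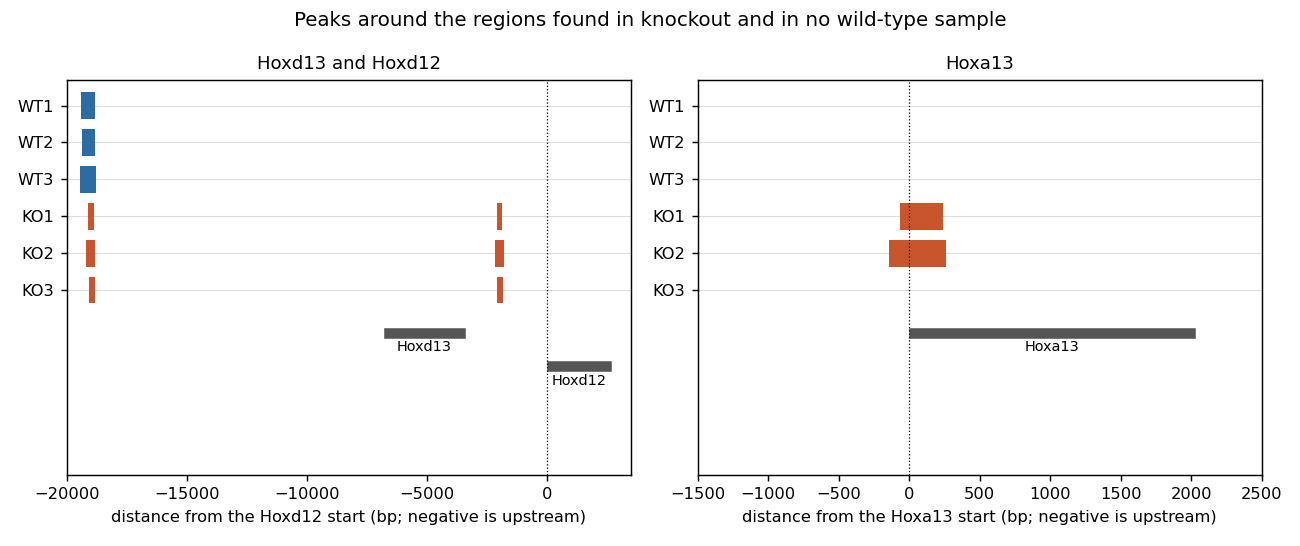
Peaks of each sample upstream of Hoxd12 (left, with Hoxd13) and over Hoxa13 (right), by distance in bp from the gene's start with upstream to the left. The peak between Hoxd13 and Hoxd12 is in the 3 knockout rows alone, that at the Hoxa13 start in KO1 and KO2, and the far-left region, at Evx2, is in all 6 rows.

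Among the 11 regions found in every sample, covered length separated the genotypes at 3. Groups without overlap always give an exact permutation p of 0.1 here, so p at these 3, the Evx2 region included, restates the separation. There were 2 with less covered in every knockout sample than in any wild-type sample (18.2%, against 26.7% of 31159 regions in all 6 samples) and 1 with more (9.09%, against 12.8%). The mean was lower in knockout for 6 of the 11, against 65.7% of those regions. Besides the region at Evx2, the lower one was chr11:96311194-96312120, inside the Hoxb3 span towards Hoxb5. There 769, 927 and 778 bp were covered in wild type and 454, 727 and 588 bp in knockout (difference -235 bp, exact permutation p = 0.1). Summed over the 3 regions inside the Hoxb3 span and outside Hoxb4, covered length was 1.38 ± 0.0881 kb in wild type and 0.590 ± 0.137 kb in knockout (SD, n = 3 each, exact permutation p = 0.1). The lost region and the one in WT1 and WT3 alone are part of this sum, so its p-value partly restates the lost call.

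The region with more covered in knockout, chr6:52211479-52212218, lay inside Hoxa3, 849 bp downstream of its start, and overlapped the noncoding gene Hoxaas3. It had 497, 581 and 506 bp covered in wild type and 639, 630 and 647 bp in knockout (difference 111 bp, exact permutation p = 0.1). The region beside it, over the start of Hoxa3 shown among the promoters, covered 713, 531 and 657 bp in wild type and 793, 734 and 563 bp in knockout, with overlap. The 563 bp of KO3 were separate peaks of 225 and 338 bp, and the start lay in the gap between them. Anterior regions of Hoxa summed to 2.12 ± 0.128 kb in wild type and 2.27 ± 0.149 kb in knockout (SD, n = 3 each; exact permutation p = 0.2), whereas the regions assigned to Hoxa9, Hoxa10 and Hoxa13 summed to 3.02 ± 0.247 kb and 2.10 ± 0.447 kb (exact permutation p = 0.1). The latter sum includes the lost region at Hoxa9, with 1029, 451 and 328 bp in wild type and none in knockout. Its p-value thus partly restates that call, and the difference between the ends of the cluster was not tested. The region beside Hoxa4, 117 bp from its span, covered 447, 535 and 372 bp in wild type and 448, 535 and 488 bp in knockout. Inside Hoxa7 the shared region covered 699 ± 124 bp and 732 ± 80.6 bp, and near the start of Hoxa10 305 ± 75.3 bp and 303 ± 39.5 bp (SD, n = 3 each; exact permutation p = 0.8 and 1).

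**Figure D5:**
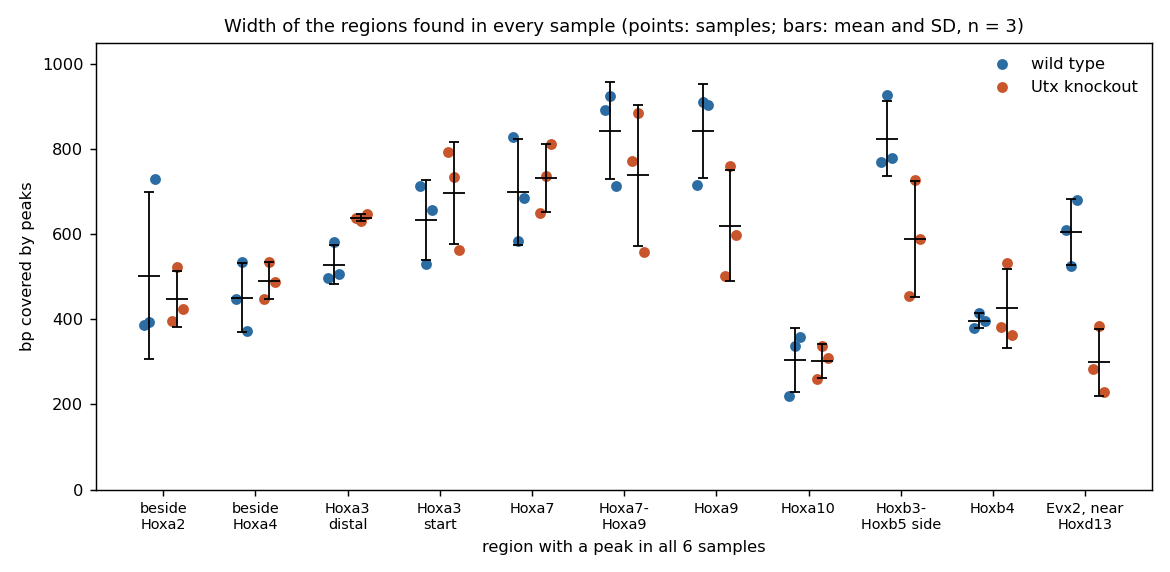
Base pairs covered by peaks in each of the 11 regions found in all 6 samples, as points per sample with mean and SD for wild type (blue) and knockout (orange). The groups are separate for the region inside Hoxa3 marked distal (knockout higher), the Hoxb3 region on the Hoxb5 side and the Evx2 region (knockout lower), and overlap in the other 8.

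The remaining regions completed the Hoxa cluster. Over the start of Hoxa5, a gene that acts in myeloid commitment, peaks of 213, 199 and 230 bp were present in wild type and one of 199 bp in KO2, so this region was not called lost. Without KO2 it would be. Inside Hoxa10 a region near an internal start had peaks of 385 bp in WT3, 229 bp in KO2 and 367 bp in KO3. Between Hoxa7 and Hoxa9, 801 bp from Hoxa9, 843 ± 113 bp were covered in wild type and 739 ± 165 bp in knockout (SD, n = 3 each; exact permutation p = 0.5). The region on the Hoxa2 side, 3513 bp from that gene, overlapped Hotairm1, a noncoding RNA gene named for myeloid cells. It covered 386, 394 and 729 bp in wild type and 397, 522 and 425 bp in knockout. Hoxa2, Hoxa11, Hoxd4, Hoxd9, Hoxd10, Hoxd11, Hoxd12 and Hoxd13 had no region in or within 1 kb of their spans, although regions lay within 20 kb of each.

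By gene, the number of peaks within 20 kb was lower in every knockout than in any wild-type sample for 8 of the 38 members (21.1%, against 21.4% of protein-coding genes) and higher for 2 (5.26%, against 3.29%). These windows overlap and share their peaks. The 8 were Hoxa3, Hoxa7, Hoxa9, Hoxa10, Hoxb3, Hoxb4, Hoxb5 and Hoxb6, and the 2 were Hoxd12 and Hoxd13. Hoxa9 had 10 peaks in each wild-type sample and 6, 8 and 8 in knockout. Hoxb4 had 6, 4 and 4 against 2 in each knockout sample. Hoxd13 had 1 in each wild-type and 2 in each knockout sample. Of the other 28 members, 13 had no peak and 15 had overlapping groups.

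Of the 24 promoter windows that matched 22 members, 4 were overlapped by a merged peak region, those printed above, against 42.8% of all promoter windows overlapped by a peak in any sample. The Hoxa3 window alone had peaks in all 6 samples (36% of all windows), and 0 of the 24 had peaks in all wild-type and no knockout samples (1.07% of all windows). Entries were missing for Hoxa4, Hoxb2, Hoxb3, Hoxb5, Hoxb6, Hoxb7, Hoxb9, Hoxb13, Hoxc5, Hoxc6, Hoxc8, Hoxc9, Hoxc10, Hoxc11, Hoxc12 and Hoxc13. Motifs were searched on both strands of each window. The MEIS and TGIF letters TGACAG were in 2 of the 24 (19.2% of all windows), Hoxa2 and Hoxa3, the latter 13 bases before its start on the opposite strand. The PBX-HOX letters TGATNNAT were in 4 (8.85% of all), those of Hoxa2, Hoxb1, Hoxb8 and Hoxd11. The CDX and posterior HOX letters TTTATNG were in 2 (10.9%), Hoxb8 and Hoxd4, with 3 matches each. The ETS letters CCGGAA were in 2 (14.9%), Hoxa10 and Hoxd12, and the GATA letters AGATAA in 0 (11.2%). None of these matches overlapped another, and a match describes letters alone.

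Genes that work with or upstream of the Hox genes were examined in the same way, beside the 10.6% lost and 4.69% gained of all regions. At Meis1, the TALE partner of HOXA9, 1 of 16 was lost, with 12, 11 and 11 peaks in wild type and 8, 11 and 8 in knockout. At Pbx2 1 of 6 regions was lost, with 6, 6 and 7 peaks in wild type and 5 in each knockout sample, and at Pbx4 1 of 4 was lost. Of 110 regions near 11 genes of the MLL, menin and DOT1L group, whose complexes act on Hox chromatin, 14 were lost (12.7%) and 4 gained (3.64%). Aff1 had 5 of 36 lost, Mllt3 4 of 20 and Nup98 2 of 6. Mllt10 had 1 of 6 lost, and each of Aff1, Mllt3 and Mllt10 had 1 gained. Dot1l, Mllt1 and Nup98, 3 of the 11 genes, had fewer peaks in every knockout than in any wild-type sample, against 21.4% of protein-coding genes. Kmt2a, which encodes MLL itself, had 0 of 3 lost and Men1 0 of 5. Near the Cdx genes, which switch on Hox genes in the embryo, 0 of 8 regions were lost or gained.

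Peaks near markers of several cell types differed between the same samples. These values stand beside knockout lists that were 19.0% shorter, and beside 21.4% of protein-coding genes with fewer and 3.29% with more peaks in every knockout than in any wild-type sample. The summed peaks near 8 erythroid markers were 46 to 52 in wild type and 13 to 16 in knockout, with 7 of the 8 lower in every knockout sample and Slc4a1 at 0 in each. Those near 9 B lymphoid markers were 40 to 50 and 63 to 80, with 4 of the 9 higher, and those near 6 progenitor markers 54 to 59 and 43 to 47, with 4 of the 6 lower. Near 7 stromal and endothelial markers they were 18 to 24 and 12 to 16 (3 lower and 1 higher), with Cxcl12 at 0 in each knockout sample. Near 4 megakaryocyte markers they were 25 to 28 and 12 to 15 (3 lower). Near 6 granulocyte and monocyte markers they were 50 to 54 and 42 to 49, with 2 lower (Mpo and Prtn3) and 1 higher (Itgam). Near 7 T and NK markers they were 23 to 28 and 28 to 31, with 1 higher (Cd2). Each marker had a peak in at least 1 sample. The sums count a peak once for each marker near it, so they are not counts of distinct peaks. Neighbours such as Hbb-bs and Hbb-bt, Rag1 and Rag2, Vpreb1 and Igll1, or Elane and Prtn3 share peaks and are not independent markers. In this mixed population, fewer cells with an open site and a weaker opening per cell cannot be told apart, and the part that cell types had in the Hox values was not tested.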

How the data were processed

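ATAC-seq peak lists of 6 samples were used, 3 wild type and 3 Utx knockout, grouped by their titles. The authors deposited 1 list per sample with chromosome, start and end alone. Per the submitters' processing notes, the tool was MACS2, with no version, and the build mm10; the lists' own labels name a p-value threshold. The aligner, read filters, insertion shift and duplicate handling were not stated in those notes or the labels. The deposited lists carry no counts, so depth is unknown and presence and width of peaks were the measurements. A longer list can reflect more open sites or a deeper or cleaner library.

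Peaks sharing at least 1 bp were merged, and gene spans widened by 20 kb came from RefSeq (GRCm38.p6). A region was assigned to the shortest member span that it overlaps, otherwise to the nearest. Regions, members and lists were chosen with earlier results of these data known. Named genes were all 38 members, and from each partner list up to 4 with the most lost plus gained regions, with others as examples chosen after their values were seen. Genotypes were compared with exact permutation tests (two-sided, 10 arrangements), without adjustment, since no p can go below 0.1. The calls were tested on simulated data, where they recovered most of the regions made lost or gained and called no others. The simulated lists dropped few peaks at random and had no built-in difference in length between genotypes, unlike the real lists. The rate of false calls in the real lists was thus not measured. Peak sequences outside promoter windows and 1 further Hox gene were not analysed here, and totals of the TALE list are not reported here. Python 3.11.15, numpy 2.4.6 and matplotlib 3.10.9 were used.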

Additional observations from a re-analysis of the deposited data

How the results depend on the processing

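Alternatives left out each sample, took the widest 50% of peaks or the 44576 widest of each list, used gene spans alone or 10 and 50 kb around them, or changed what a shared region is. The last kind was run for lost and gained regions alone. Under the others, lower covered length in knockout held its direction for Hoxa (leaving out a sample, -1.40 to -0.799 kb), Hoxb (-1.11 to -0.760 kb) and the 4 clusters together (-2.65 to -1.57 kb), but its size fell to -0.082 kb for Hoxa in gene spans alone and to -0.195 kb for Hoxb with the widest 50% of peaks. Hoxd covered length was -0.605 kb with the widest 50% of peaks and changed direction elsewhere, with -0.198 to 0.104 kb when a sample was left out (above 0 without WT3 or KO3), 0.183 kb at equal list length, 0.262 kb within 10 kb and 3.004 bp per Mb of the list, an alternative chosen after seeing the data. With equal list length, Hox peaks differed by 1, Hoxa peaks by 0, Hoxb peaks by -1 and Hoxd peaks by 2; with the widest 50% of peaks, Hoxb peaks differed by 0 and Hoxd peaks by -1; in gene spans alone, Hoxd peaks differed by 0. The Hox share of peaks differed by -0.0011 to 0.00164 percentage points when a sample was left out (below 0 without WT2, KO2 or KO3) and by -0.000249 in gene spans alone. Lost regions numbered 2 to 4 and gained regions 1 to 2 when a sample was left out, the 4 without WT3 and the 2 gained without KO3. There were 1 lost and 0 gained with the widest 50% of peaks and in gene spans alone, 1 lost at equal list length, 1 lost with 50% coverage of the region, and 5 lost and 2 gained when 2 of 3 samples sufficed. The 1 lost with the widest peaks is the Evx2 region, whose knockout peaks are not among the widest 50%. The cause of the other changes was not tested.

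Same-numbered samples shared only a number, with correlations of their deviations over regions of -0.0221, 0.00554 and 0.019 for the 3 pairs, and not every sample correlated best with its own number. With a replicate block the differences stayed as they were, at -3.33 Hox peaks, -1.94 kb of Hox, -1 kb of Hoxa and -0.90 kb of Hoxb coverage, and the exact sign-flip permutation p could not go below 0.25.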

Other observations

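Of 16 regions near the other homeobox genes Gsx1, Gsx2, Pdx1, Nkx2-3, Hhex and Hlx, 1 was lost (6.25%, against 10.6% of all regions), near Hhex, and 0 were gained (against 4.69%). Hlx had 5 peaks in each of the 6 samples and Pdx1 had 1 in each, while Nkx2-3 had 2, 4 and 1 in wild type and 1, 2 and 1 in knockout.

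Genes that border the clusters differed in direction. Skap2, next to Hoxa, had 4, 4 and 3 peaks in wild type and 2 in each knockout sample, with 1 of 4 regions lost. Mtx2, next to Hoxd, had 2, 2 and 3 against 1 in each, with 1 of 3 lost. Skap1, beside Hoxb, had 6, 6 and 4 against 5 in each, and Calcoco1, beside Hoxc, 2, 1 and 1 against 1 in each. Of 17 regions near Skap2, Mtx2, Skap1 and Calcoco1, 2 were lost (11.8%, against 10.6% of all regions) and 0 gained (against 4.69%). Of these 4 genes 2 had fewer peaks in every knockout than in any wild-type sample, against 21.4% of protein-coding genes. Evx1, beyond Hoxa13, had 2 peaks in every sample. Evx2, beyond Hoxd13, had 1 in each wild-type and 2 in each knockout sample, and these are the peaks already described for Hoxd13.

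Between 20 and 50 kb from the Hox genes lay 3 more regions. Those 42610 and 45005 bp from Hoxa13 had peaks in all 6 samples. At the nearer, 329, 323 and 270 bp were covered in wild type and 203, 223 and 228 bp in knockout. At the farther the order was the opposite, with 309, 286 and 256 bp in wild type and 378, 500 and 479 bp in knockout, and the groups did not overlap at either. Of 31159 regions in all 6 samples, 26.7% had less covered in every knockout than in any wild-type sample and 12.8% had more. The remaining region, 31764 bp from Hoxb1, had a peak of 227 bp in WT1 alone.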
